A study of Liolaemus parthenos with 3 samples.

Results

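The transcripts described here are the 30 assembled transcripts named L1, a family of long interspersed elements (LINE), among 480 transcripts quantified in 3 tissues (brain, ovary and liver) of a single adult of the parthenogenetic lizard Liolaemus parthenos, whose females reproduce without mating. They were taken by name: every quantified transcript whose element name in the deposited list was L1 was kept, and no measured value was used. The L1 row of the deposited subfamily table, which gives reads per element, was read beside them. Each tissue gave 1 library of total RNA, made without strand information, so reads of an element and of a gene on the opposite strand cannot be told apart, and all came from the same animal, an untreated adult taken from the wild. The question set by the study was which elements were transcribed in each tissue, and the data also served to try out its pipeline.

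L1 elements are non-LTR retrotransposons that copy themselves through RNA. A complete element encodes an RNA-binding protein and a protein with endonuclease and reverse transcriptase activity, which nicks the chromosome and copies the element's RNA into the nick. Most genomic copies are cut short at their start and cannot move, and such copies can still be read as parts of other transcripts. Lizard genomes are known for holding L1 elements of several lineages side by side with CR1, L2 and other LINE clades. In mammals, L1 activity is best known from the germ line, and from the brain as somatic insertions.

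The subfamily table held 1143616 to 5468656 estimated reads per column over 31 subfamilies, and the quantification files held 4651 to 16405 estimated reads per library over the 480 transcripts. Brain was the deepest in both. The sample records and the file names conflict for the other tissues: the ovary record holds the file with liver in its name, and the liver record the one with ovary. Table values are therefore given by column name. File values are given by record, as those of the brain library, the ovary-record library and the liver-record library. Other families bear on the names. The ratio of ovary to liver by column and by record ran in opposite directions for 4 families. They were the ones that differed at least 2-fold in both sources, beyond counting error and on at least 20 reads. These were ERV2 (0.104 in the table, 89.6 in the files), ERV3 (19.9 and 0.153), Penelope (6.35 and 0.214) and NeSL (4.36 and 0.193). Their ratios would run the same way if the file names held. By record the ratio ran the same way, beyond counting error in both sources, for L2 (2.07 and 1.66), Ngaro (1.89 and 1.94) and SINE3 (0.921 and 0.436). It also did for Gypsy (7.15 and 4.005), which had only 7 and 4 reads in the files. Each of these but Gypsy was under 2-fold in the table, the files or both. Their ratios would not run the same way if the file names held. These values were not used to rename a library. With 1 library per tissue no test was possible. Intervals are exact 95% intervals for counting error only, the spread between animals is unknown, and a lower share cannot be told apart from fewer expressing cells. No gene is named in the files, so the tissue labels could not be checked against marker genes.

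In the subfamily table, L1 had 30002 reads under Brain, 21786 under Ovary and 9246 under Liver. As a share of all element reads this was 0.549% under Brain (0.542 to 0.555), 1.905% under Ovary (1.88 to 1.93) and 0.538% under Liver (0.527 to 0.549). The Ovary column stood above both others, and the intervals of the Brain and Liver columns overlapped. Set against the Ovary column, the L1 share was 3.47-fold lower under Brain (3.41 to 3.53) and 3.54-fold lower under Liver (3.45 to 3.63). The ratio of Brain to Liver was 1.02 (0.996 to 1.04), with an interval that included 1. The differences of Brain and Liver from Ovary kept their direction and were under 2-fold in 3 other scalings. TMM gave 1.70-fold below Ovary for Brain and 1.27-fold above Liver for Ovary. Median-of-ratios scaling gave 1.88-fold and 1.45-fold, and the authors' log2 CPM values gave 1.21-fold and 1.29-fold. The ratio of Brain to Liver did not keep 1 direction. It was 0.746 with TMM, 0.768 with median-of-ratios scaling and 1.07 by log2 CPM. A difference was called where it reached 2-fold, rested on at least 20 reads and had an interval that left out 1. By that rule 53.6% of the 28 subfamilies with enough reads were lower and 3.57% higher under Brain than under Ovary. From Ovary to Liver, 65.4% of 26 were higher and 3.85% lower under Ovary. L1 thus had the direction of most called subfamilies of the table.

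Most reads of the table belong to SINE3, a short element related to 5S ribosomal RNA. Without SINE3, L1 took 6.40% of reads under Brain, 8.52% under Ovary and 3.43% under Liver. The order Ovary, Brain, Liver then had no overlapping intervals. On this base Brain was 1.33-fold below Ovary and 1.87-fold above Liver, both within the 2-fold limit. Of LINE reads alone, L1 took 13.1% under Brain, 21.0% under Ovary and 6.15% under Liver. The other member of the L1 group of elements, Tx1, had 36 reads under Brain, 5 under Ovary and 6 under Liver, and none of its 4 named transcripts was quantified.

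**Figure D1:**
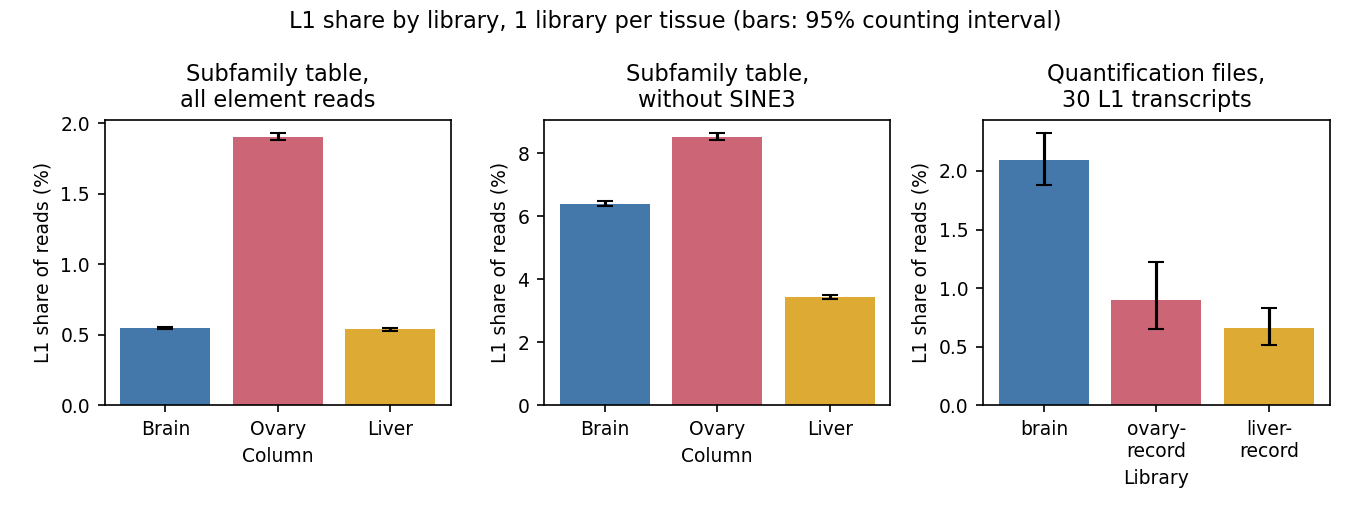
L1 share of reads in percent, by column of the subfamily table (left: all element reads, middle: without SINE3) and by library of the quantification files (right), 1 library per bar, with exact 95% counting intervals. The Ovary column is highest in the table (1.905%), whereas brain is highest in the files (2.09%). The bases differ, since SINE3 holds most reads of the table and few of the files. Without SINE3 the Ovary column is still the highest (8.52%), with Brain at 6.40%. Why the orders differ was not tested.

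The quantification files gave another order, on another base. SINE3, most of the table, had only 35 reads in brain, 8 in the ovary-record library and 42 in the liver-record library there. The 30 L1 transcripts held 343 reads in brain, 42 in the ovary-record library and 70 in the liver-record library. These were 2.09% (1.88 to 2.32), 0.903% (0.652 to 1.22) and 0.658% (0.513 to 0.830) of the libraries. Brain was above both others and the intervals of the other libraries overlapped. The brain share was 2.32-fold that of the ovary-record library (1.68 to 3.27) and 3.18-fold that of the liver-record library (2.45 to 4.17). Both ratios use the same brain library. From the ovary-record library to the liver-record library the ratio was 1.37 (0.914 to 2.04), and these counts gave no direction. In reads, the brain excess over both others does not depend on which of them is the ovary. With the names exchanged, the ratio of ovary to liver would be 0.728 (0.490 to 1.10). In the table it was 3.54, or 2.49 without SINE3.

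Per length the picture changed. Summed TPM, which divides reads by effective transcript length and adds up to 1000000 in each file, was 34046 in brain, 17402 in the ovary-record library and 34996 in the liver-record library. Brain and the liver-record library were thus level in TPM, and the log2 ratio between them was -0.040 against 1.67 in reads. The log2 ratio of brain to the ovary-record library was 0.97 in TPM against 1.21 in reads. The gap between reads and TPM was present among the members under 500 bases too, where the ratio of brain to the liver-record library was 1.33 in reads and 0.740 in TPM. Over all transcripts under 500 bases it was 1.98 and 1.06.

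The 30 members were 208 to 1262 bases long, with a median of 301 bases, and 15 were under 300 bases. All 30 were far shorter than a complete element, which spans several kilobases. For all 480 transcripts the range was 201 to 7524 bases and the median 284. The L1 transcripts fell into 29 assembled components, groups of transcripts whose names differ only in the final number. In 1 component, TRINITY_DN65778_c0_g1, 2 members were quantified. The deposited list names 33 transcripts in these components, all of them L1, of which 3 were not quantified.

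Reads of L1 in brain lay mostly in its 4 longest members. TRINITY_DN222708_c0_g1_i1, 1262 bases, had 133 reads in brain, 6 in the ovary-record library and 4 in the liver-record library. TRINITY_DN50286_c0_g3_i2, 717 bases, had 39 reads in brain, 5 in the ovary-record library and 0 in the liver-record library. TRINITY_DN266673_c0_g1_i1, 579 bases, had 22 reads in brain and 0 in both others. TRINITY_DN177242_c0_g1_i1, 623 bases, was named after its values were seen and had 14 reads in brain and 0 in both others. Brain was the high library in each of the 4, by reads and by share. For TRINITY_DN177242_c0_g1_i1 the exact interval of the ratio to the ovary-record library began at 0.940 and so included 1. That of its ratio to the liver-record library began at 2.15. A count of 0 allows a share of up to 0.0645% in the ovary-record library and 0.0282% in the liver-record library.

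In TPM too, brain was highest for each of these. TRINITY_DN222708_c0_g1_i1 reached a TPM of 3551 in brain, 522 in the ovary-record library and 313 in the liver-record library. Its brain share was 6.28-fold that of the ovary-record library (2.81 to 17.4) and 21.6-fold that of the liver-record library (8.23 to 80.3). TRINITY_DN266673_c0_g1_i1 was at least 2.08-fold and at least 4.76-fold higher against a count of 0 set at a floor of 3 reads per library, a bound that leaves out the counting error of the brain reads. The exact intervals of these ratios began at 1.55 and 3.55. TRINITY_DN50286_c0_g3_i2 was at least 8.44-fold higher in brain than in the liver-record library by the same floor, with an interval from 6.54, and 2.21-fold higher than in the ovary-record library with an interval that included 1 (0.871 to 7.19).

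Together these 4 members, the ones of at least 500 bases, held 208 of the 343 L1 reads in brain, or 60.6% (55.3 to 65.9). They held 11 of 42 in the ovary-record library, or 26.2% (13.9 to 42.04), and 4 of 70 in the liver-record library, or 5.71% (1.58 to 14.0). Of L1 TPM they held less: 24.6% in brain, 7.92% in the ovary-record library and 0.894% in the liver-record library. The limit of 500 bases was set after the values were seen, so these shares are a description. The same holds for the ratios and intervals of the long and the short members that follow. Their summed share of the brain library was 5.36-fold that of the ovary-record library (2.94 to 10.9) and 33.7-fold that of the liver-record library (13.0 to 125.0). Without TRINITY_DN222708_c0_g1_i1, the other 3 had 75 reads in brain, 5 in the ovary-record library and 0 in the liver-record library, a 4.25-fold difference (1.74 to 13.5) and one of at least 16.2-fold by the same floor, with an interval from 12.9. For all L1 transcripts without it, brain was 1.65-fold above the ovary-record library, no longer past 2-fold, and 2.07-fold above the liver-record library.

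The 26 members under 500 bases had 135 reads in brain, 31 in the ovary-record library and 66 in the liver-record library. This was 0.823% (0.690 to 0.973), 0.667% (0.453 to 0.945) and 0.620% (0.480 to 0.788) of the libraries, and all 3 intervals overlapped. The ratio of brain to the ovary-record library was 1.24 (0.831 to 1.89) and that of brain to the liver-record library 1.33 (0.982 to 1.81). For the short members these depths gave no direction between any pair of libraries in reads. In TPM they summed to 25657 in brain, 16024 in the ovary-record library and 34683 in the liver-record library.

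**Figure D2:**
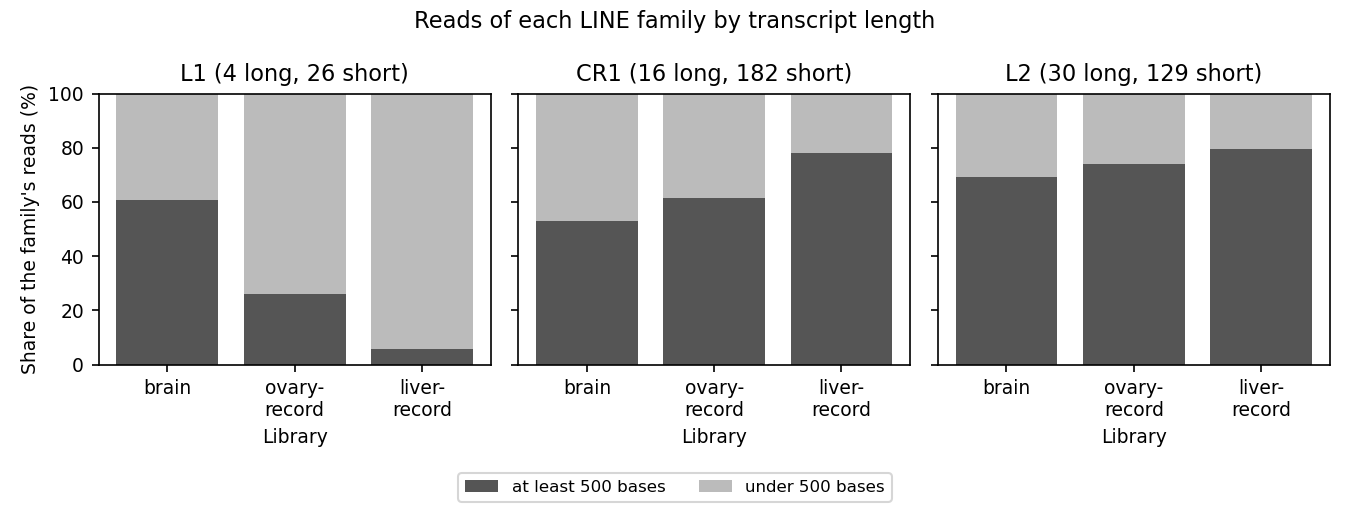
Share of each family's reads in percent, split by transcript length at 500 bases, for L1, CR1 and L2 in each library, 1 library per bar. The long part of L1 is largest in brain (60.6%) and smallest in the liver-record library (5.71%), whereas in CR1 and L2 it is smallest in brain. The limit was set after the values were seen.

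The other LINE families with many transcripts had their reads spread in another way about the limit of 500 bases. That limit was set after the values were seen and splits off the 4 L1 members with most reads in brain. The contrast with L1 is therefore a description. In CR1, a LINE clade common in reptiles and birds, the 16 of 198 transcripts of at least 500 bases held 52.9% of the family's reads in brain, 61.5% in the ovary-record library and 78.1% in the liver-record library. In L2, a clade related to CR1, the 30 of 159 long transcripts held 69.1%, 73.9% and 79.5%. Over all 480 transcripts the long ones held 71.1%, 75.9% and 85.4%. With 1 library per tissue, the difference between L1 and these families was not tested.

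Among the short members, some were highest outside brain. TRINITY_DN52530_c0_g1_i1, 220 bases, had 10.3 reads in brain, 4 in the ovary-record library and 12.3 in the liver-record library. Its TPM of 9743 in the liver-record library was 27.8% of all L1 TPM there, against 3143 in brain and 4209 in the ovary-record library. In reads, its ratio to the liver-record library was 0.541 in brain (0.209 to 1.37) and 0.763 in the ovary-record library (0.179 to 2.52). Both intervals included 1. Its reads were divided by estimate with TRINITY_DN52530_c1_g1_i1, and the pair summed to 22 in brain and 15 in the liver-record library. TRINITY_DN325993_c0_g1_i1, 320 bases, had 2 reads in brain, 10 in the ovary-record library and 2 in the liver-record library. It was the L1 transcript with most reads and the highest TPM, 4997, in the ovary-record library. TRINITY_DN80103_c1_g2_i1, 418 bases, had 3, 8 and 4 reads in brain, the ovary-record library and the liver-record library. TRINITY_DN331187_c0_g1_i1, 309 bases, had 3, 1 and 9 reads in the same order, with most in the liver-record library. Its ratio of the ovary-record library to the liver-record library was 0.254, with an interval that included 1 (0.0058 to 1.84). That of brain to the liver-record library was 0.216, with an interval that left out 1 (0.0377 to 0.867). Intervals of TRINITY_DN325993_c0_g1_i1 and TRINITY_DN80103_c1_g2_i1, picked as high in the ovary-record library, left out 1 too. These 3 members were picked by their values, so such intervals describe their counts and are no support for a difference. For TRINITY_DN325993_c0_g1_i1, brain to ovary-record was 0.0567 (0.00604 to 0.266) and ovary-record to liver-record 11.4 (2.44 to 107.4). For TRINITY_DN80103_c1_g2_i1 these were 0.106 (0.0182 to 0.443) and 4.58 (1.23 to 20.8).

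These last 3 members stayed below 20 reads in each pair of libraries and were named after their values were seen, as were TRINITY_DN52530_c1_g1_i1 and TRINITY_DN33749_c0_g1_i3. TRINITY_DN52530_c1_g1_i1, 212 bases, had 11.7 reads in brain, 0 in the ovary-record library and 2.66 in the liver-record library. TRINITY_DN33749_c0_g1_i3, 341 bases, had 10 reads in brain, 0 in the ovary-record library and 6 in the liver-record library. The remaining 20 members were 208 to 410 bases long. They had 0 to 11 reads each in brain (median 4.74), 0 to 4 in the ovary-record library (median 0) and 0 to 4 in the liver-record library (median 1). Among them 2 were at 0 in brain, 15 in the ovary-record library and 7 in the liver-record library.

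**Figure D3:**
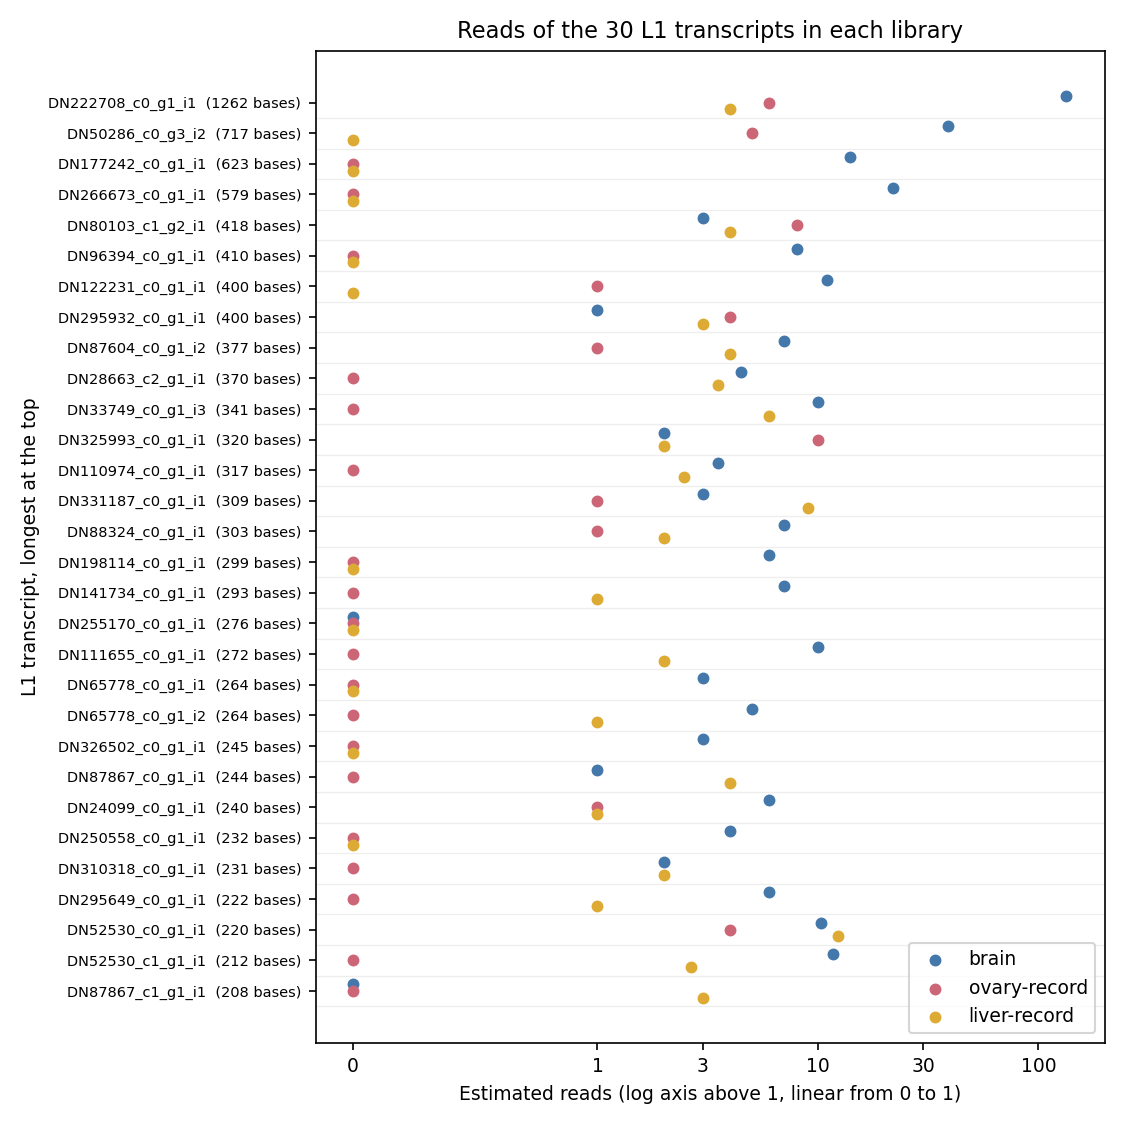
Estimated reads of each of the 30 L1 transcripts (rows, longest at the top) in each library (colours), on an axis that is logarithmic above 1 read and linear from 0 to 1. The 4 longest transcripts have 14 to 133 reads in brain and at most 6 in the other libraries, while the other 26 have at most 12.3 reads in any library.

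Few members had enough reads for a call on their own. Between brain and the ovary-record library, 3 members held 20 reads together, and 2 of them, TRINITY_DN222708_c0_g1_i1 and TRINITY_DN266673_c0_g1_i1, were higher in brain and 0 lower. Over all transcripts 32.5% of the 120 with enough reads were higher in brain and 10.8% lower. Between brain and the liver-record library, 4 members had enough reads, and 3 were higher in brain and 0 lower, against 51.1% higher and 16.3% lower among 135 transcripts. Between the ovary-record library and the liver-record library, 0 of the 30 had enough reads, while 34.4% of 61 transcripts were called in each direction. Except for TRINITY_DN52530_c0_g1_i1, the members that passed the minimum did so through their brain reads, and these counts do not set L1 apart from the background.

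Without any minimum, the share was higher in brain than in the ovary-record library for 23 of the 30 members, lower for 5, and 2 had no reads in both. Over all 480 transcripts it was higher for 69.8% and lower for 26.5%, against 76.7% and 16.7% of the members. For brain against the liver-record library it was higher for 19 members, or 63.3%, and lower for 10, or 33.3%, with 76.0% higher and 20.4% lower over all transcripts. For the ovary-record library against the liver-record library it was higher for 8, or 26.7%, and lower for 14, or 46.7%, with 42.5% higher and 31.9% lower over all. The members, like all transcripts, leaned to brain, the deepest library. Between the other libraries more members had the higher share in the liver-record library, while more of all transcripts had it in the ovary-record library, a difference that was not tested. Of those 14 members, 11 had no reads in the ovary-record library, the smallest, as had 95 of the 153 among all transcripts. The summed L1 share gave no direction, with a ratio of ovary-record to liver-record of 1.37 (0.914 to 2.04).

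Reads were found for 28 of the 30 members in brain, 11 in the ovary-record library and 20 in the liver-record library. Set to the 4651 reads of the smallest library, the expected numbers were 22.2, 11.0 and 15.1. At that depth the ovary-record library held reads for 36.7% of the L1 members, against 56.1% for CR1, 53.5% for L2 and 54.6% for all transcripts. In the liver-record library the shares were 50.3% for L1, 45.9% for CR1, 41.6% for L2 and 47.1% for all. These differences were not tested. Of the 30 members, 9 had reads in all 3 libraries, 10 in brain and the liver-record library, 2 in brain and the ovary-record library, 7 in brain alone and 1, TRINITY_DN87867_c1_g1_i1, in the liver-record library alone. TRINITY_DN255170_c0_g1_i1 had no reads in any library. Over all 480 transcripts 39.0% had reads in all 3 libraries, against 9 of the 30 members. The share with reads in brain and the liver-record library was 33.3% against 17.5%, that in brain and the ovary-record library 6.67% against 12.1%, and that in brain alone 23.3% against 24.2%. The 7 found in brain alone had 3 to 22 reads there.

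For 3 pairs of members, estimated reads were tied. The estimated reads of TRINITY_DN52530_c0_g1_i1 and TRINITY_DN52530_c1_g1_i1, 10.295 and 11.705 in brain, add up to 22, and those in the liver-record library, 12.337 and 2.663, to 15. The same holds for TRINITY_DN28663_c2_g1_i1 and TRINITY_DN110974_c0_g1_i1, with sums of 8 in brain and 6 in the liver-record library, and for TRINITY_DN87867_c0_g1_i1 and TRINITY_DN87867_c1_g1_i1, with a sum of 7 in the liver-record library. In each pair the separate values are not whole and the sum is whole within 0.002 reads. The division of reads within these pairs is an estimate of the quantification, and the sums do not depend on it. The 4 long members had whole numbers of reads in all libraries.

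L1 was set beside the other LINE families of the files. CR1 had a share of 41.04% in brain, 45.6% in the ovary-record library and 45.01% in the liver-record library, with ratios of 0.899 (0.856 to 0.945) and 0.912 (0.879 to 0.947) for brain against each. L2 had 21.8%, 17.3% and 10.4%, with ratios of 1.26 (1.17 to 1.36) and 2.09 (1.96 to 2.24). The counting intervals of L1, at 1.68 to 3.27 and 2.45 to 4.17, lay above those of CR1 and L2 in both pairs in reads, a comparison of counting error within these libraries. Without TRINITY_DN222708_c0_g1_i1 the L1 ratios were 1.65 and 2.07, the latter close to that of L2. Under 500 bases they were 1.24 and 1.33 for L1, against 1.10 and 1.96 for CR1 and 1.49 and 3.14 for L2. This limit was set after the values were seen and takes out the L1 members with most reads in brain. In TPM the ratios of brain to the ovary-record library were 1.96 for L1, 1.15 for CR1 and 1.48 for L2. Those of brain to the liver-record library were 0.973, 1.01 and 1.69, so L1 was close to CR1 there and below L2. The TPM ratios carry no interval. Of the 6 other LINE subfamilies in the files, NeSL and BovB were called higher in brain when set against the ovary-record library, beside 40.0% higher and 6.67% lower among 15 subfamilies of any class. Their ratios, 3.90 (1.91 to 9.26) and 2.89 (1.16 to 9.29), were above that of L1, with intervals that overlapped its own. Against the liver-record library, L2 and the I element were called higher in brain, beside 40.0% higher and 13.3% lower. The ratio of the I element, 3.46 (1.43 to 10.1), was above that of L1, again with overlapping intervals. Between the latter libraries NeSL was lower in the ovary-record library and L1 was not called, beside 8.33% higher and 33.3% lower among 12 subfamilies.

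In the table the order differed. Of 14 other LINE subfamilies, 1, the I element, was called higher and 4, CR1, Vingi, RTE and RTEX, lower under Brain than under Ovary. L1 was lower there too, beside 3.57% higher and 53.6% lower among 28 subfamilies of any class. From Brain to Liver 2, the I element and NeSL, were higher and 3, CR1, R4-Dong and RTEX, lower under Brain, beside 21.4% of the table's subfamilies in each direction, and L1 was neither. From Ovary to Liver 6 were higher under Ovary and 0 lower, and L1 was higher. Among 26 subfamilies of any class 65.4% were higher and 3.85% lower. L1 ranked the third of the 15 LINE subfamilies by reads in the Brain column and the second in the Ovary and Liver columns.

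**Figure D4:**
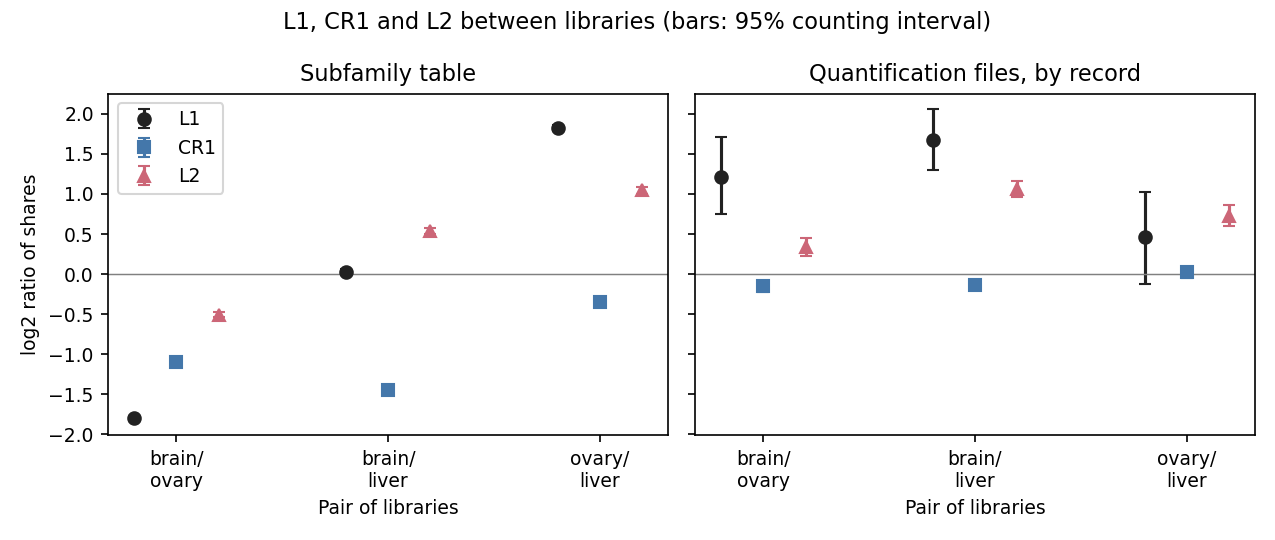
Log2 ratio of shares between pairs of libraries for L1, CR1 and L2 in the subfamily table (left) and the quantification files (right), with 95% counting intervals that are smaller than the symbols where they cannot be seen. For brain over ovary L1 lies at -1.80 in the table and at 1.21 in the files by record. Without SINE3, a base that is not drawn, the table gave -0.41.

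The table and the files hold different amounts of L1. The sources used here do not say how the 480 quantified transcripts relate to the table, so the reads of one as a percentage of the other compare sizes and are not a share recovered. In brain, where names do not conflict, the L1 reads of the files equal 1.14% of the L1 reads of the table, against 4.69% for CR1 and 10.8% for L2. The deposited list names 1524 transcripts L1, 7.93% of its 19207, in 1213 components, and 1.97% of them were quantified, against 3.44% of the CR1 and 5.95% of the L2 transcripts. Of the L1 components, 2 also held a transcript named for another family, 1 BovB and 1 RTEX. Per named transcript, the table held 19.7 L1 reads under Brain, 14.3 under Ovary and 6.07 under Liver. The members described above are therefore a small part of the L1 transcripts, and whether the rest behaved alike was not tested.

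Among the 151 quantified transcripts of other elements with at least 20 reads over the 3 libraries, 3 had a profile closest to that of summed L1, whose shares split 57.3%, 24.7% and 18.0% over brain, the ovary-record library and the liver-record library. TRINITY_DN2307_c1_g1_i1, a CR1 transcript of 210 bases with 16, 2 and 3 reads, split 57.8%, 25.5% and 16.7%, a Euclidean distance of 0.0161. TRINITY_DN67237_c0_g1_i1, a CR1 transcript of 466 bases with 17.9, 2 and 4 reads, stood at 0.0274. TRINITY_DN10034_c0_g2_i1, an L2 transcript of 516 bases with 25, 3 and 4 reads, stood at 0.0422. Each rests on few reads outside brain, and the likeness is over 3 libraries only.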

How the data were processed

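The authors deposited estimated counts per element subfamily (31 subfamilies) and per assembled transcript (480, in Salmon's column layout, per the file headers, with no version stated). TPM, deposited beside the counts, sums to 1000000 over the 480 transcripts of each file. A deposited table of log2 CPM, of a scaling not given in the sources used here (base 2 taken from the values), served only as an alternative. The submitters' processing notes list Bowtie2 2.3.4.1, with no role stated. A deposited list pairs 19207 assembled transcripts with element names. The assembled sequences and a genome were not used here, so no sequence or position is given.

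Counts were rounded to whole reads. Shares carry exact Clopper-Pearson 95% intervals, and ratios exact conditional binomial 95% intervals (Python 3.11.15, scipy 1.17.1). PCR copies of a molecule cannot be told from separate molecules, so the intervals and the floor of 3 reads cover counting error only. Expected numbers at equal depth are hypergeometric. TMM factors came from edgeR 4.0.16 and median-of-ratios factors from their formula. Tissues were not tested against each other, since each had 1 library. Depth was 4651 to 16405 reads per file.

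Transcripts with at least 20 reads over the 3 libraries, singly or as a component, were named by rule, which gave 4. A further 6 were described singly after their values were seen, and any other named transcript serves as an example of a count. The members, lists and limits were chosen with earlier results of these data known.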

Additional observations from a re-analysis of the deposited data

How the results depend on the processing

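No paired analysis was possible because each tissue has 1 library, and for the same reason no replicate could be left out. Log2 ratios are given in the order brain to ovary, brain to liver, ovary to liver, and shares in the order brain, ovary, liver. In the subfamily table the log2 ratios of L1 by all element reads, -1.80, 0.028 and 1.82, became -0.41, 0.90 and 1.31 without SINE3, -0.68, 1.10 and 1.77 by LINE reads and -0.77, -0.42 and 0.34 with TMM factors. Median-of-ratios factors gave -0.91, -0.38 and 0.53. The deposited log2 CPM, an alternative added after seeing the data, gave -0.28, 0.094 and 0.37. The direction held for brain over ovary and for ovary over liver under all 5, though only ovary over liver without SINE3 or by LINE reads stayed past 2-fold. Brain over liver turned negative with TMM and with median-of-ratios factors only. The L1 shares of 0.549%, 1.905% and 0.538% became 6.40%, 8.52% and 3.43% without SINE3 and 13.1%, 21.0% and 6.15% of LINE reads.

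In the quantification files by record the log2 ratios of L1 in reads were 1.21, 1.67 and 0.46. In TPM brain over liver turned to -0.040 and ovary over liver became -1.01. Without the leading component brain over ovary was 0.73 and brain over liver 1.05. Without the 4 members of at least 500 bases, an alternative added after seeing the data, they were 0.30 and 0.41, and in TPM 0.68, -0.43 and -1.11. The share of L1 became 3.41%, 1.74% and 3.50% in TPM, 3.15%, 1.40% and 1.14% of LINE reads, and 3.24%, 1.60% and 1.22% without the 3 most-read transcripts of each library. Without the 4 long members brain had 0.823%. The leading component, TRINITY_DN222708_c0_g1, held 38.8%, 14.3% and 5.71% of L1 reads and 10.4%, 2.997% and 0.894% of L1 TPM. With at least 5 reads, 17, 4 and 3 members were detected.

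The number of members called higher in brain than in the liver-record library was 3, and 5 with a minimum of 10 reads or none. Called lower were 0, and 1 with a minimum of 10 reads, with none or in TPM. Between brain and the ovary-record library 0 were lower, and 2 with a minimum of 10 reads or 3 with none. Between the ovary-record library and the liver-record library 0 were higher, and 2 with a minimum of 10 reads or 3 with none. Lower minimums also raised the number of members tested. It went from 4 to 11 or 29 for brain and the liver-record library, and from 3 to 11 or 28 for brain and the ovary-record library. For the ovary-record and liver-record libraries it went from 0 to 5 or 22. The share of all transcripts called is not given at these minimums, so these counts are no result about L1. The other settings left the numbers called within 1.5 times. The causes were not tested. With 42 and 70 L1 reads outside brain, depth limits every statement on a single short member.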
